A study of Homo sapiens with 4 samples.

Results

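The annexins are a family of proteins that bind acidic phospholipids of cell membranes when calcium rises. The 10 annexin genes ANXA1, ANXA2, ANXA3, ANXA4, ANXA5, ANXA6, ANXA7, ANXA10, ANXA11 and ANXA13 were taken by name from the 58825 gene rows of the count tables. The rule used names and no measured value, but the family was chosen with earlier results of these data known. Of these, 9 had a count in at least 1 library and 8 passed the filter on low counts, out of 13801 genes that passed. ANXA10 was too low to be tested and ANXA13 had 0 counts in every library.

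The libraries came from LoVo, an established line of human colorectal adenocarcinoma whose MET, the receptor of hepatocyte growth factor, stays uncleaved and constitutively phosphorylated. The 2 MET+ libraries are labelled as wild type for MET and as the GFP control, from cells transfected with a GFP plasmid. The 2 MET-KO libraries are from cells edited at MET with CRISPR/Cas9, selected in puromycin and grown out as single clones that were picked by western blot. By the paper's methods, a GFP plasmid was also given in the editing, as a transfection control, with the Cas9 plasmid and the MET guide. All 4 libraries share LoVo as background and culture in DMEM with 10% fetal bovine serum. The libraries of a group are described as biological replicates. Whether 1 clone or several gave the MET-KO libraries is not given in the sources used here, so the p-values measure only the spread between these libraries, and an effect of losing MET cannot be told apart from a difference between clones.

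Each library was a bulk 3′ RNA library with 8429142 to 10286552 counts on genes, and 17849 to 19722 genes had a count. Counts of MET itself were 2794 and 3272 in MET+ and 861 and 965 in MET-KO, a log2 fold change of -1.96 (SE 0.09, adjusted p = 1.49e-18). Here and for every gene below, p is from the quasi-likelihood test of edgeR, adjusted by the Benjamini-Hochberg method across all tested genes. Within a group, the log2 CPM (counts scaled to a common library size) of the tested genes correlated at 0.991 in MET+ and 0.992 in MET-KO, a value across genes, which are not independent replicates. The groups also differed beyond MET. Of the Y chromosome genes, 13 had 10 or more counts in both MET-KO libraries, and 12 of these had 0 counts in both MET+ libraries. The median log2 fold change of a chromosome's tested genes ran from -0.51 on chromosome 14 to 0.50 on chromosome 7, beside 0.01 over all tested genes. The part of these differences in the annexin values was not tested. Values by chromosome are given below as a description.

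Among 12 markers of colon epithelium, 11 had a count. Their summed level was 9667 and 9699 CPM in MET+ and 8307 and 7324 CPM in MET-KO, with 2 called higher, 8 called lower and 1 not called. This is 90.9% called, beside 54.1% of all tested genes. CDX1 was at 0 in every library, and CDH17, an intestinal cadherin, was at 25.6 and 23.5 CPM in MET+ and 0 in MET-KO. The 2 called higher were CDX2 and KRT20. CDX2 was at 63.3 and 66.4 CPM in MET+ and at 145 and 123 CPM in MET-KO. KRT20 had 0 counts in MET+ and 27 and 28 in MET-KO. Among the other cell types, 4 leukocyte markers summed to 0.587 to 1.64 CPM, 3 endothelial markers to 0 to 0.922 CPM and 5 fibroblast markers to 1.64 to 4.14 CPM, with PTPRC, CD3E, CDH5, COL1A2 and DCN at 0 in every library.

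Annexins share a conserved core, which typically binds calcium and membrane. The members differ in the N-terminal tail through which several of them bind S100 proteins or other calcium sensors. They take part in exocytosis and endocytosis, in the organisation of membrane domains and actin, and in the sealing of torn plasma membranes. In intestinal epithelium, annexin A2 with S100A10 is known from the apical membrane and its trafficking, and annexin A13 is known from enterocytes.

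Of the 8 tested annexins, ANXA3, ANXA6 and ANXA11 were higher in MET-KO cells, each by close to the same factor, and ANXA1, ANXA4 and ANXA5 were lower by less. ANXA2, the most abundant member, and ANXA7 did not pass the test. Thus 6 of 8 tested annexins were called at an adjusted p of 0.05, where 54.1% of all 13801 tested genes were called. The 3 called higher stand beside 27.2% of all tested genes, and the 3 called lower beside 26.9%. In this fit none of the 8 reached an absolute log2 fold change of 1, and the median over the 8 was 0.03. In a fit scaled by library totals only, ANXA3 was at 1.02, ANXA6 at 1.05 and ANXA11 at 1.07. In each of the 8 the CPM of the groups did not overlap, as in 75.6% of tested genes. In these bulk libraries, more cells expressing a gene and more RNA per cell cannot be told apart.

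ANXA11, whose protein has a long N-terminal tail and links RNA granules to lysosomes, had 2038 and 2423 counts in MET+ and 5163 and 5074 in MET-KO. On the CPM scale, which was not divided by transcript length since these 3′ libraries give about 1 fragment a transcript, it stood at 246 and 248 in MET+ and at 505 and 466 in MET-KO. Both MET-KO libraries lay far above both MET+ libraries. The mean went from 247 ± 1.71 CPM (SD, n = 2) to 486 ± 27.5 CPM (SD, n = 2), a fold of 1.97 and a log2 fold change of 0.98 (SE 0.09, edgeR adjusted p = 4.61e-11). ANXA11 had the smallest p of the family, at rank 906 among all tested genes.

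ANXA6, an annexin with an enlarged core that is known as a scaffold for regulators of Ras and for its part in cholesterol traffic, had 364 and 482 counts in MET+ and 943 and 963 in MET-KO. Its level was 43.9 and 49.4 CPM in MET+ and 92.3 and 88.5 CPM in MET-KO, so the groups were separated by a gap wider than the spread within either. The log2 fold change was 0.95 (SE 0.11, edgeR adjusted p = 3.23e-09), a fold of 1.93. Among the tested genes of its group it moved from percentile 74.7 of level in MET+ to percentile 88.1 in MET-KO.

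ANXA3, which is known as a marker in several carcinomas, had 738 and 939 counts in MET+ and 1779 and 1907 in MET-KO. Its level was 89.0 and 96.2 CPM in MET+ and 174 and 175 CPM in MET-KO, again without overlap. The log2 fold change was 0.91 (SE 0.10, edgeR adjusted p = 5.75e-10), a fold of 1.89. The log2 fold changes of ANXA3, ANXA6 and ANXA11 lay within each other's 95% intervals, which as folds were 1.65 to 2.16 for ANXA3, 1.66 to 2.25 for ANXA6 and 1.73 to 2.24 for ANXA11.

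ANXA1, a glucocorticoid-inducible annexin that restrains phospholipase A2 and signals through formyl peptide receptors, was, of the 3 tested members called lower, the one whose call was kept in every fit run at an adjusted p of 0.05. It had 1574 and 1573 counts in MET+ and 1103 and 1215 in MET-KO. The level was 189.9 and 161 CPM in MET+ and 108 and 112 CPM in MET-KO, so the MET+ libraries differed more from each other than the MET-KO libraries did, and still lay above them. The mean was 176 ± 20.3 CPM (SD, n = 2) in MET+ and 109.8 ± 2.64 CPM (SD, n = 2) in MET-KO, with a log2 fold change of -0.68 (SE 0.10, edgeR adjusted p = 4.55e-07), or 0.626 of the MET+ level.

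ANXA4 and ANXA5 changed less, and their calls depended on the fit. ANXA4, an annexin of the apical side of secretory epithelia, stood at 62.4 and 55.0 CPM in MET+ and at 40.3 and 49.8 CPM in MET-KO, with 412 to 542 counts a library. The log2 fold change was -0.38 (SE 0.12, edgeR adjusted p = 0.00779). The call was lost without MET+ replicate 1 (-0.28, adjusted p = 0.100), without MET-KO replicate 1 (-0.23, adjusted p = 0.167), with library totals only (-0.28, adjusted p = 0.0607) and by DESeq2 (adjusted p = 0.0694). The ANXA4 gene overlaps AAK1 on the opposite strand, which had 238 and 255 counts in MET+ and 342 and 337 in MET-KO. The overlap holds the starts of both genes, while the reads of these libraries lie at the other end of the transcript. The setting for strand in the counting is not given in the sources used here, so the share of each gene in any reads from the overlap is not known.

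ANXA5, the annexin that binds exposed phosphatidylserine and is used to stain dying cells, stood at 179 and 170.1 CPM in MET+ and at 148 and 146 CPM in MET-KO. The log2 fold change was -0.25 (SE 0.09, edgeR adjusted p = 0.0222), the smallest of the called members. The call was lost without MET+ replicate 1 (-0.20, adjusted p = 0.165), without MET+ replicate 2 (-0.29, adjusted p = 0.0536) and without MET-KO replicate 2 (-0.24, adjusted p = 0.0651), and also with library totals only (-0.15, adjusted p = 0.180), with the replicate block (adjusted p = 0.0619) and by DESeq2 (adjusted p = 0.0557).

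ANXA2, which joins S100A10 into a complex that bridges membranes, binds actin and recruits plasminogen to the cell surface, held the highest level of the family by far. It had 10921 and 12818 counts in MET+ and 12316 and 12412 in MET-KO. The level was 1317 and 1313 CPM in MET+ and 1206 and 1141 CPM in MET-KO, at percentile 99.3 of the tested genes in both groups. The MET-KO libraries lay below the MET+ libraries, but the log2 fold change of -0.17 (SE 0.09, 95% interval -0.35 to 0.02) did not pass the test (edgeR adjusted p = 0.133). Without MET-KO replicate 1 it was -0.21 and passed (adjusted p = 0.0482). The processed pseudogene ANXA2P2 took up at most 12 counts in a library.

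ANXA7, an annexin that binds the calcium sensor sorcin, stood at 59.4 and 56.8 CPM in MET+ and at 69.9 and 65.5 CPM in MET-KO. The log2 fold change of 0.22 (SE 0.11, 95% interval 0.01 to 0.44) did not pass after adjustment (edgeR adjusted p = 0.0772). It passed with library totals only (0.32, adjusted p = 0.0145) and with at least 10 counts in every library (0.26, adjusted p = 0.0371).

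ANXA10, an annexin of gastric epithelium, had 10 and 8 counts in MET+ and 0 in both MET-KO libraries. A floor of 3 counts per library, or 0.276 to 0.362 CPM, puts it at least 3.56-fold lower in MET-KO. The filter on low counts left it out of the test, and without that filter it was called (edgeR adjusted p = 0.00166). ANXA13, the enterocyte annexin, had 0 counts in all 4 libraries and gave no comparison, so it was not detectable at this depth. There were no molecular identifiers, so floors and binomial intervals cover counting error only.

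**Figure D1:**
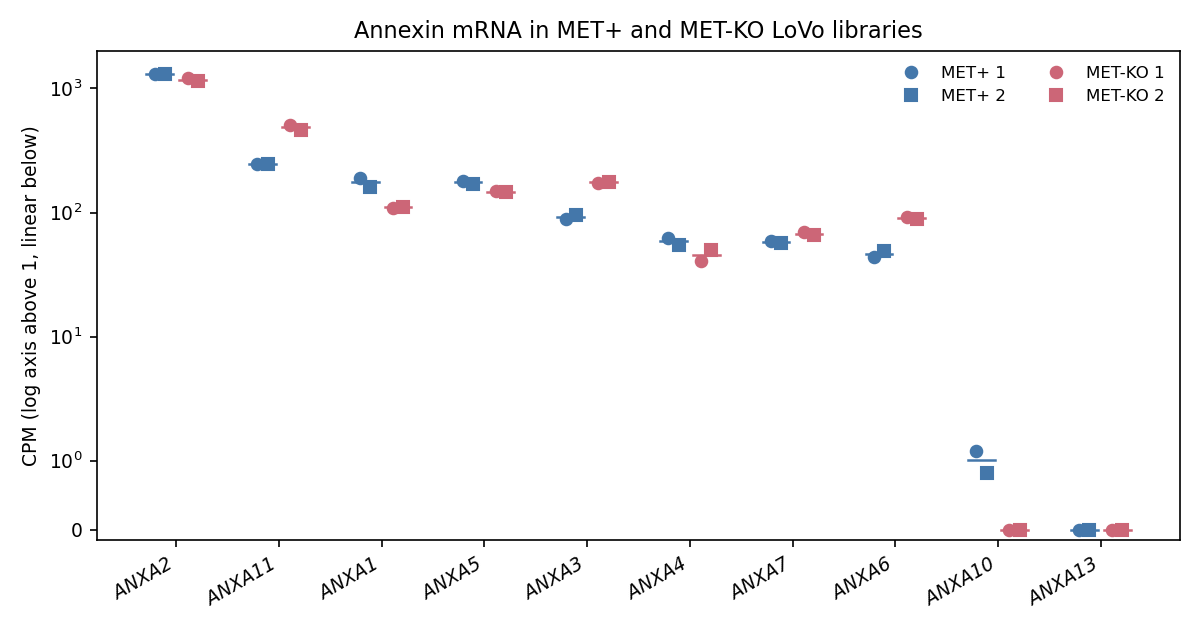
Level of each annexin in CPM (log axis above 1, linear below), 1 point per library for MET+ (2 libraries) and MET-KO (2 libraries), with a line at the group mean. ANXA2 stands highest in all 4 libraries, ANXA3, ANXA6 and ANXA11 lie higher in both MET-KO libraries, and ANXA10 in MET-KO and ANXA13 in all libraries are at 0.

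The order of the levels differed between the groups. In MET+ cells ANXA2 came first and ANXA11 next, followed by ANXA1 and ANXA5, whose libraries overlapped, then ANXA3, then ANXA4 and ANXA7, whose libraries overlapped too, then ANXA6, ANXA10 and ANXA13. In MET-KO cells the order was ANXA2, ANXA11, ANXA3, ANXA5, ANXA1, ANXA6, ANXA7 and ANXA4, with no overlap between neighbours, and ANXA10 and ANXA13 were at 0. ANXA3 thus stood below ANXA1 and ANXA5 in MET+ cells and above them in MET-KO cells. ANXA6 moved from below ANXA4 and ANXA7 to above them.

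Summed over the 10 members, annexin reads made up 0.215% and 0.204% of all counts in MET+ and 0.236% and 0.239% in MET-KO. The summed level was 2170 ± 26.3 CPM (SD, n = 2) in MET+ and 2294 ± 70.3 CPM (SD, n = 2) in MET-KO, a ratio of 1.06 (p = 0.333 by an exact two-sided permutation test, the smallest p that 2 libraries against 2 allow). Without ANXA2 the sum was 854 ± 23.4 CPM (SD, n = 2) in MET+ and 1121 ± 24.6 CPM (SD, n = 2) in MET-KO, a ratio of 1.31 (exact permutation p = 0.333). The makeup of the total also differed. ANXA2 took 60.2% of annexin counts (95% exact binomial interval 59.5 to 60.9) and 61.1% (60.4 to 61.7) in MET+, against 51.4% (50.8 to 52.1) and 50.8% (50.2 to 51.5) in MET-KO. ANXA11 took 11.2% and 11.5% in MET+ and 21.6% and 20.8% in MET-KO. ANXA1 took 8.68% and 7.49% in MET+ and 4.61% and 4.98% in MET-KO. For each of these 3 members the shares in one group lay apart from those in the other.

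**Figure D2:**
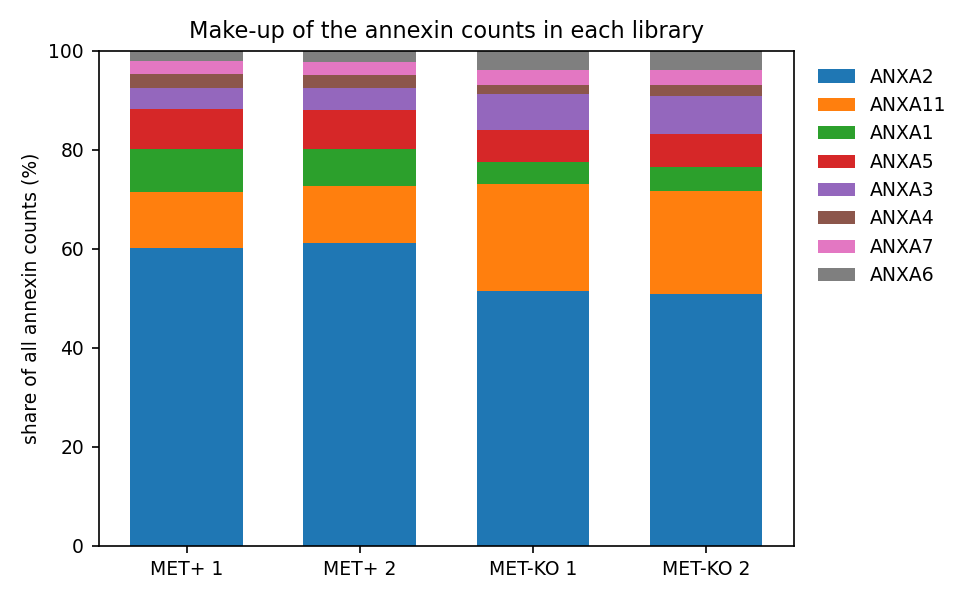
Share of each of the 8 tested annexins in the summed annexin counts, in percent, 1 bar per library. ANXA2 takes 60.2% and 61.1% in MET+ and 51.4% and 50.8% in MET-KO, and the share of ANXA11 is larger in both MET-KO libraries.

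Since the medians of whole chromosomes differed between the groups, each member was set beside the genes around it. ANXA6 lies at chr5:151100712-151157882 (GRCh38, minus strand), where the chromosome median of the log2 fold change was -0.43, and its own 0.95 went against that median. Within 5 Mb of it, 50 genes were tested, of which 9 were higher and 25 lower. ANXA3 lies at chr4:78551519-78610451 (plus strand), where the chromosome median was 0.07 and the 50 tested genes within 5 Mb held 10 higher and 19 lower. ANXA11 lies at chr10:80150889-80205572 (minus strand), where the chromosome median was -0.01, and the 27 tested genes within 5 Mb held 10 higher and 3 lower, at a median of 0.32. Within 5 Mb, more neighbours of ANXA6 and ANXA3 were called lower than higher, and more neighbours of ANXA11 were called higher than lower. The nearer genes differed for ANXA3, whose 5 tested genes within 1 Mb held 2 higher and 0 lower, at a median of -0.01. Within 1 Mb of ANXA6, 15 genes were tested, with 5 higher and 6 lower, at a median of -0.07. Those within 1 Mb of ANXA11 were 10, with 3 higher and 1 lower, at a median of 0.47.

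ANXA1 lies at chr9:73151757-73170393 (plus strand), where the chromosome median was 0.05 and the 29 tested genes within 5 Mb held 11 higher and 8 lower, with a median of 0.30. Its decrease went against that median. ANXA2, at chr15:60347134-60402883 (minus strand), lies on a chromosome with a median of -0.43, and its own -0.17 was at percentile 65.5 of that chromosome's tested genes. ANXA4 is at chr2:69644425-69827100 (plus strand), ANXA5 at chr4:121667955-121697113 (minus strand) and ANXA7 at chr10:73375101-73414076 (minus strand). The medians within 5 Mb of ANXA4, ANXA5 and ANXA7 were 0.01, 0.12 and -0.05. ANXA10 is at chr4:168092515-168187690 (plus strand).

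**Figure D3:**
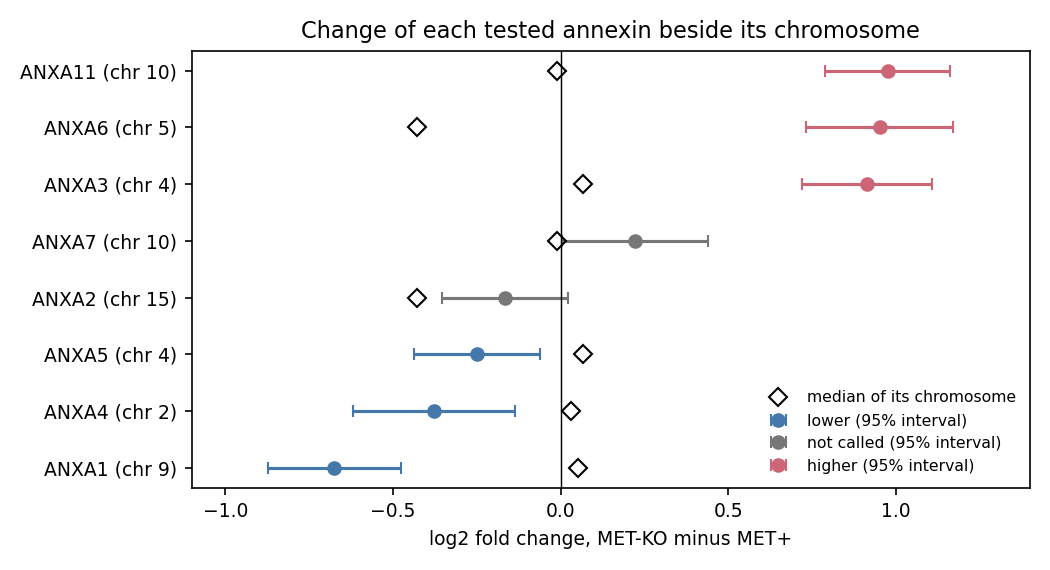
Log2 fold change of each tested annexin, MET-KO minus MET+, with its 95% interval, beside the median log2 fold change of all tested genes of its chromosome (diamonds). The intervals of ANXA3, ANXA6 and ANXA11 lie above 0 and above their chromosome medians, and that of ANXA1 lies below both.

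**Figure D4:**
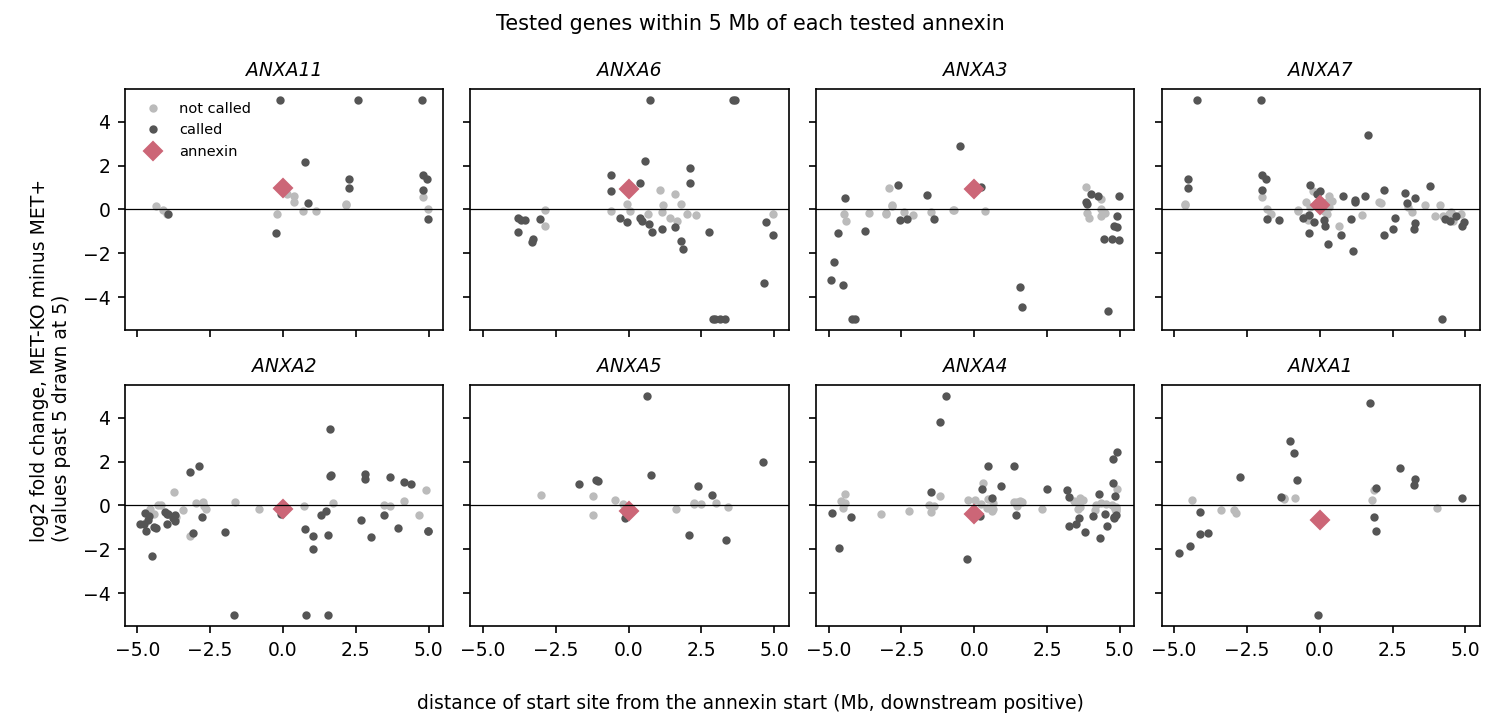
Log2 fold change, MET-KO minus MET+, of the tested genes within 5 Mb of each tested annexin against their distance from the annexin's start in Mb, with the annexin marked. Across the panels 21 values past 5 in either direction are drawn at 5 or -5. Dark points passed the test and pale points did not. The neighbours of ANXA6 have a median of -0.39 while ANXA6 itself is at 0.95.

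The 250 bases before the transcription start are shown for the 6 called members, the first listed RefSeq start of each, so that the genes that rose (ANXA3, ANXA6 and ANXA11) and those that fell (ANXA1, ANXA4 and ANXA5) stand side by side. The sequences are from RefSeq on GRCh38.p14, 5′ to 3′ on the gene's strand, with CG dinucleotides in capitals. The gene positions given above are from another annotation, GENCODE, whose starts differ. By those positions the ANXA3 stretch lies inside the gene, and the stretches of ANXA1, ANXA5 and ANXA6 reach into theirs. They lie at chr4:78551520-78551769 (plus strand) for ANXA3, at chr5:151157780-151158029 (minus strand) for ANXA6, at chr10:80205809-80206058 (minus strand) for ANXA11, at chr9:73151615-73151864 (plus strand) for ANXA1, at chr2:69643558-69643807 (plus strand) for ANXA4 and at chr4:121696981-121697230 (minus strand) for ANXA5.
ANXA3: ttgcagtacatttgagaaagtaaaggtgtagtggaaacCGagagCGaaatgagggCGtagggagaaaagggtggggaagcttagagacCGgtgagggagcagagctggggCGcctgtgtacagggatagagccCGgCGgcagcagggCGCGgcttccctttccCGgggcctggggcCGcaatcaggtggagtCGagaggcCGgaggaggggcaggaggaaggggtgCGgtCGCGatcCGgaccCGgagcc
ANXA6: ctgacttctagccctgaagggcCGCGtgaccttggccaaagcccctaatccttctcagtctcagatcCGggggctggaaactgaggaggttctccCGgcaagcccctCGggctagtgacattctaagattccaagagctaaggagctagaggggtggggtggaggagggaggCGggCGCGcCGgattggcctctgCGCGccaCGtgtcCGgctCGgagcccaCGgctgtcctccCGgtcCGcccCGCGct
ANXA11: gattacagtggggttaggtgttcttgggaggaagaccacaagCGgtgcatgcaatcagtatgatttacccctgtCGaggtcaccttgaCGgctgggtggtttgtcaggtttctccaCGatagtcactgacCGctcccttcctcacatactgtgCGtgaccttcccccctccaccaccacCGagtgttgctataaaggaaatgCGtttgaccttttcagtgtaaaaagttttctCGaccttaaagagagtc
ANXA1: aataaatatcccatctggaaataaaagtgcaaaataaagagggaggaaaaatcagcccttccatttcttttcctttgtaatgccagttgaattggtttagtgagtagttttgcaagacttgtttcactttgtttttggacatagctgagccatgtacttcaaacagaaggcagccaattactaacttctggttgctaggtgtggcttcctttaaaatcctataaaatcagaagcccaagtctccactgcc
ANXA4: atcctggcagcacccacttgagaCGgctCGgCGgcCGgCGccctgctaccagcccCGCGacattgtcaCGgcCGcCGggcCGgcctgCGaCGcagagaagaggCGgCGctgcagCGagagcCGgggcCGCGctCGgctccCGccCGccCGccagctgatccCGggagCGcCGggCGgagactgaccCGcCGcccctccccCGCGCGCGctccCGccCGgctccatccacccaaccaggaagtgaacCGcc
ANXA5: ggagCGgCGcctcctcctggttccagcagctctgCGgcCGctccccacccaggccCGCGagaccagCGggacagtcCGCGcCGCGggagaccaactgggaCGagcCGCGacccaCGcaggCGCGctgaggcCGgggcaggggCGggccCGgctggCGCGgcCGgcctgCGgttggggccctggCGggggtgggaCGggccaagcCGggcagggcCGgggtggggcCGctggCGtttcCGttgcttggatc

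CG dinucleotides did not sort the called members by direction. Of the genes that rose, ANXA3 held 18, ANXA6 held 19 at its first start and 10 at its other, and ANXA11 held 9, 22 and 5 at its 3 starts. Of those that fell, ANXA1 held 0, ANXA4 held 36 and 21 at its 2 starts, and ANXA5 held 31. Of the tested members not called, ANXA2 held 28 and ANXA7 held 20. ANXA10, which was not tested and had 0 counts in MET-KO, held 0. Over all 35116 such RefSeq stretches the median was 11, and 6.06% held 0. The reads lie at the 3′ end of the transcript, so they do not show which start was used, and DNA methylation was not measured.

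Windows from 250 bases before to 50 bases after the start were also searched for 2 short motifs on both strands, over 13 windows of 9 members. GGAATG, the letters bound by TEAD factors, was in 0 of the 13 windows and in 14.0% of all RefSeq windows. TGANTCA, the letters bound by AP-1, was in 1 of the 13 and in 7.71% of all windows. That match was in ANXA2, 127 bases before its RefSeq start and inside the gene by the GENCODE position. It is shown at chr15:60398091-60398129 (minus strand) with the motif in capitals, although ANXA2 was not called, as the 1 match found.
ANXA2: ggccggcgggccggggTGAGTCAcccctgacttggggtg

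A match is a description of the letters and not of a bound site.

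The proteins through which annexins act were read from lists of known partners. Of 7 S100 and other calcium-sensor partners, all tested, 2 were called higher, 3 lower and 2 not, with a median log2 fold change of 0.06. The share called was 71.4%, beside 54.1% of all tested genes. S100A10, the partner of ANXA2, stood at 1459 and 1429 CPM in MET+ and at 812 and 768 CPM in MET-KO, a log2 fold change of -0.87 (SE 0.09, edgeR adjusted p = 9.4e-10). S100A11, the partner of ANXA1, stood at 812 and 805 CPM in MET+ and at 554 and 532 CPM in MET-KO (log2 fold change -0.57, edgeR adjusted p = 1.98e-06). Both partners fell, in the case of S100A10 by more than the -0.17 of ANXA2. The groups did not overlap for either, as in 75.6% of all tested genes.

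S100A6, a partner of ANXA11, stood at 4586 and 4850 CPM in MET+ and at 6876 and 5899 CPM in MET-KO (log2 fold change 0.44, edgeR adjusted p = 0.000671). SRI, which encodes sorcin, the partner of ANXA7, stood at 60.6 and 54.2 CPM in MET+ and at 107 and 111 CPM in MET-KO (log2 fold change 0.93, edgeR adjusted p = 2.54e-09). It lies on chromosome 7, whose tested genes had a median of 0.50. PDCD6, the calcium sensor ALG-2 that binds ANXA11 and ANXA7, had only 25 to 46 counts a library and a fold of 1.34 (95% interval 0.807 to 2.24). The PDCD6 gene overlaps AHRR on the same strand, so its reads are uncertain. S100A4 was at 0.06 (95% interval -0.13 to 0.25) on the log2 scale, and neither PDCD6 nor S100A4 passed the test.

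S100P, a small calcium sensor of epithelial tumours, had 7796 and 8006 counts in MET+ and 0 and 2 in MET-KO. The ratio of summed counts was 9234-fold lower in MET-KO, with a counting interval of 2556 to 76256.

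Reads of a member per read of its partner were compared within libraries for 5 pairs, a comparison chosen after the values were seen. ANXA2 had 0.903 and 0.919 reads per S100A10 read in MET+ and 1.49 in each MET-KO library, so the ratio in MET-KO was 1.63 times that in MET+ (exact permutation p = 0.333). ANXA1 had 0.234 and 0.200 reads per S100A11 read in MET+ and 0.195 and 0.210 in MET-KO, and the groups overlapped (exact permutation p = 0.667). ANXA7 had 0.980 and 1.05 reads per SRI read in MET+ and 0.654 and 0.590 in MET-KO (exact permutation p = 0.333). ANXA11 had 0.0536 and 0.0512 reads per S100A6 read in MET+ and 0.0735 and 0.0791 in MET-KO (exact permutation p = 0.333). ANXA11 per PDCD6 read was 81.5 and 96.9 in MET+ and 156 and 110.3 in MET-KO (exact permutation p = 0.333), on few PDCD6 counts. After Benjamini-Hochberg adjustment over the 5 ratios the exact permutation p was 0.417 for 4 of them and 0.667 for ANXA1 per S100A11, and with 2 libraries a group none could reach 0.05.

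**Figure D5:**
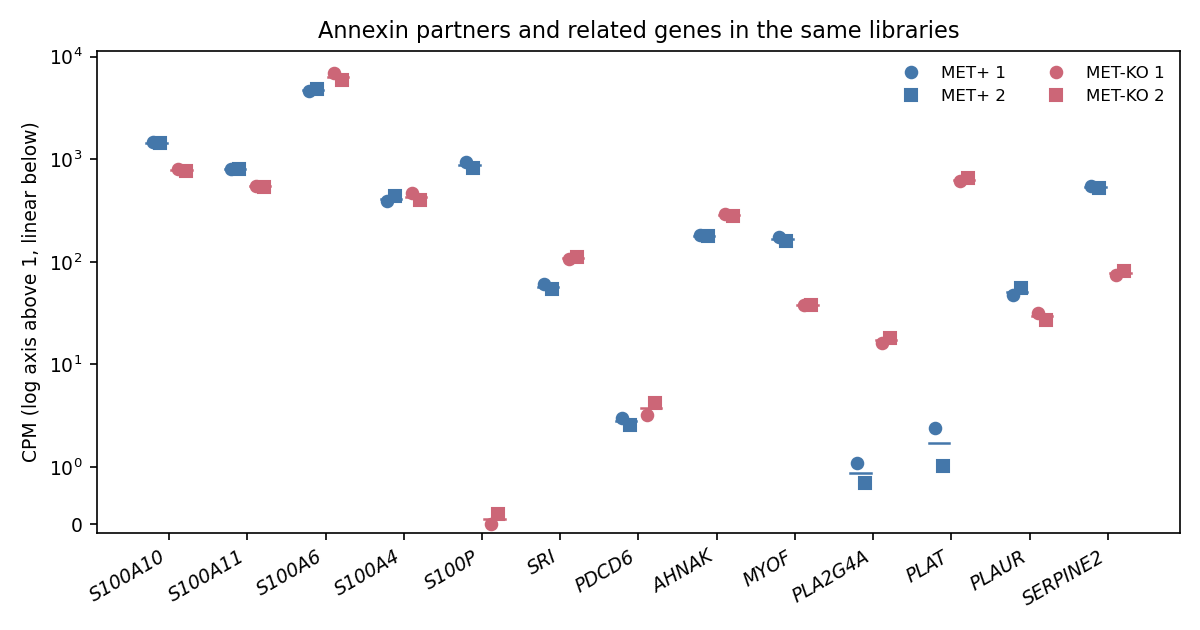
Level in CPM (log axis above 1, linear below) of annexin partners and other genes of the partner lists, 1 point per library for MET+ and MET-KO, with a line at the group mean. S100A10 and S100A11 lie lower and SRI and AHNAK higher in both MET-KO libraries.

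Annexins act in membrane repair together with calpains, ferlins and the ESCRT-III machinery. Of 16 genes of this list, 14 were tested, and 2 were called higher, 4 lower and 8 not, with a median of -0.12. Thus 42.9% of its tested genes were called, beside 54.1% of all tested genes. AHNAK, a giant scaffold that binds the ANXA2 and S100A10 complex, stood at 183 and 177 CPM in MET+ and at 293 and 280 CPM in MET-KO (log2 fold change 0.67, edgeR adjusted p = 1.34e-07). CHMP3 was the other gene that rose, by 0.42 on the log2 scale (edgeR adjusted p = 0.00237). MYOF, the ferlin myoferlin, fell most, from 175 and 159.5 CPM in MET+ to 38.3 CPM in each MET-KO library (log2 fold change -2.12, edgeR adjusted p = 2.19e-18). CAPN2 fell by 0.59, VPS4A by 0.51 and VPS4B by 0.55 on the log2 scale. DYSF was near 0 and TRIM72 at 0 counts.

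Phosphatidylserine, the lipid that annexins bind, is moved across the membrane by scramblases and flippases. Of 9 such genes 8 were tested, with 3 called higher, 3 lower, 2 not, and a median of -0.03. That is 75% called, beside 54.1% of all tested genes. The flippases did not move as 1 group. ATP8B1 had a log2 fold change of -1.39 (edgeR adjusted p = 3.42e-08) and ATP8A1 of -0.38 (adjusted p = 0.0453), while ATP11A was at 0.74 (adjusted p = 8.05e-05). TMEM30A, the subunit that flippases share, rose by 0.41 (adjusted p = 0.000557), and the scramblase gene PLSCR1 fell by 0.82 on the log2 scale (adjusted p = 2.99e-05).

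Of 5 genes tied to the signalling or release of ANXA1, only PLA2G4A was high enough to be tested. This gene encodes the cytosolic phospholipase A2, an enzyme of the kind that ANXA1 restrains. It had 9 and 7 counts in MET+ and 167 and 197 in MET-KO, a log2 fold change of 4.26 (SE 0.31, edgeR adjusted p = 8.12e-14). The formyl peptide receptor gene FPR1 had at most 3 counts in a library, and FPR2 and FPR3 had 0. The receptors of ANXA1 were thus at or under the floor in these cells.

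The plasminogen system, whose zymogen and activator the ANXA2 and S100A10 complex holds at the cell surface, had 4 of 6 genes tested. Of these, 1 was called higher, 2 lower and 1 not, with a median of -0.58. Called were thus 75% of the 4, beside 54.1% of all tested genes. PLAT, the tissue plasminogen activator, had 20 and 10 counts in MET+ and 6215 and 7078 in MET-KO, a log2 fold change of 8.55 (SE 0.17, edgeR adjusted p = 2.8e-29). SERPINE2, an inhibitor of plasminogen activators, stood at 549 and 521 CPM in MET+ and at 74.7 and 81.4 CPM in MET-KO (log2 fold change -2.78, edgeR adjusted p = 2.02e-22). PLAUR, the urokinase receptor, fell by 0.81 on the log2 scale (edgeR adjusted p = 1.66e-06). PLAU, urokinase itself, was at -0.35 (95% interval -0.87 to 0.17) and was not called, and PLG had 0 counts.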

How the data were processed

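RNA of LoVo cells was sequenced in 2 MET+ and 2 MET-KO 3′ libraries (QuantSeq 3' mRNA FWD). The deposited values are raw read counts per Ensembl gene. The submitters' processing notes name bcl2fastq, cutadapt 1.16, FastQC 0.11.7, MultiQC 1.5, STAR 2.5.4a, featureCounts 1.6.2, DESeq2 1.18.1 and GRCh38. The annotation release and the strand setting are not given in the sources used here. Gene names and positions were taken from GENCODE release 29, which matched 58552 of 58825 gene IDs, and 99 spike-in rows at 0 were left out.

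Counts were filtered with filterByExpr (minimum count 10), scaled by TMM (factors 0.949 to 1.06) and tested in edgeR 4.0.16 (R 4.3.3) by the quasi-likelihood test with condition as the only term and Benjamini-Hochberg adjustment over all 13801 genes at 0.05. CPM use the TMM-scaled library sizes. Standard errors and 95% intervals were taken from the quasi-likelihood F statistic. The script was tested on simulated data. Replicates within a group differed by more than sampling noise (chi-square per degree of freedom 5.45 and 4.86), so all 4 were kept apart. Depth, 8429142 to 10286552 counts, sets a floor of 3 counts, or 0.276 to 0.362 CPM.

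The partner lists and the markers, like the members, were chosen with earlier results of these data known. All 10 members were named, and of each partner list the genes that passed the test, with S100A10, S100A11, S100A6, SRI, PDCD6 and AHNAK always named. The values of 1 partner gene are not reported here. Other genes named without a call (S100A4, PLAU and genes near 0) were named after their values were seen. ALDH1A1, a neighbour of ANXA1, was also named after its value was seen. Alternatives were DESeq2 1.42.0 size factors or Wald test, library totals, other filters, a replicate block, thinning, and leaving out each library. Sequences are from RefSeq (GRCh38.p14), with windows for 9 of 10 members. Chromosome 8, which holds ANXA13, was left out of the member windows but not of the windows over all genes. Figures were drawn with matplotlib 3.10.9 in Python 3.11.15.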

Additional observations from a re-analysis of the deposited data

How the results depend on the processing

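ANXA1, ANXA3, ANXA6 and ANXA11 kept their calls and directions in every fit run at an adjusted p of 0.05, and no value reversed in any alternative. With library totals only, which shifted the median of all genes by 0.10 on the log2 scale, 1 annexin was called lower. ANXA4 was then at -0.28 (edgeR adjusted p = 0.0607), ANXA5 at -0.15 (0.180) and ANXA7 at 0.32 (0.0145). The ratio of summed CPM was 1.13 with library totals only, against 1.06 with TMM. With TMM but without ANXA2, the highest member, that ratio was 1.31. With at least 10 counts in every library ANXA7 was at 0.26 (0.0371), and 0 genes of the ANXA1 signalling list were called, as its 1 tested gene fell under that minimum. Where the log2 fold change of the main fit, with TMM, also had to reach 1 in size, 0 annexins were called higher and 0 lower, of 3355 genes called. The DESeq2 Wald test put ANXA4 at -0.38 (adjusted p = 0.0694) and ANXA5 at -0.25 (0.0557), and it shared 5282 calls with edgeR.

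Deviations of same-numbered libraries correlated at -0.02 across genes, so no shared deviation by replicate number was seen. This value cannot show whether the libraries were prepared in pairs. With the replicate block, 7035 genes called without it were called again, and ANXA5 was at -0.25 (edgeR adjusted p = 0.0619).

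Leaving out 1 library at a time gave 1 to 3 annexins called lower, with 1 without MET+ replicate 1. ANXA4 ranged from -0.54 to -0.23 and lost its call without MET+ replicate 1 or MET-KO replicate 1. ANXA5 ranged from -0.29 to -0.20 and kept its call only without MET-KO replicate 1. ANXA2 ranged from -0.21 to -0.12 and was called without MET-KO replicate 1 (adjusted p = 0.0482). These fits leave 1 library in a group, which is assumed to vary like the other group. Depth limits ANXA10, ANXA13 and PDCD6, which had at most 46 counts.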

Other observations

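Annexin rows outside the 10 members were near 0. ANXA9 had 2 counts in MET+ replicate 2 and 0 in the other libraries, ANXA8 had 1 count in MET+ replicate 1 alone, and ANXA8L1, its near-identical copy, had 1 count in MET+ replicate 2 and 1 in MET-KO replicate 2, so reads of ANXA8 and ANXA8L1 are uncertain. Of the ANXA2 pseudogenes, ANXA2P1 had 0 counts, ANXA2P2 had 3 and 8 counts in MET+ and 6 and 12 in MET-KO, and ANXA2P3 had 1 count in each MET+ library and 0 in MET-KO. ANXA2R, a gene named as the annexin A2 receptor and no annexin itself, had 14 and 31 counts in MET+ and 5 and 10 in MET-KO.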
